A study of Mus musculus with 8 samples.

Results

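The genes described here are 40 genes of the cell division cycle, measured in whole kidneys of mice of 49 weeks. They were taken by their listed symbols from a table of 23386 genes, and all 40 were found in it. The study compared mRNA of left kidneys from 4 wild-type (WT) mice and 4 Ctrp1-/- (KO) mice, littermates from crosses of heterozygous parents, with no treatment. Ctrp1 is another name of C1qtnf1, a gene for a secreted protein of the adiponectin-related C1q/TNF family. The KO allele lacks 679 bases of exon 4, coding sequence and part of the 3′ UTR, through the germ line, with no tissue restriction. It was made in 129S5/Sv cells and backcrossed to C57BL/6J for more than 6 generations. The labels speak of male and female mice, and no sex is assigned to a library in the labels used here.

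Cells divide in an ordered cycle. In G1, D-type cyclins with CDK4 or CDK6 phosphorylate the retinoblastoma protein and release E2F factors, which switch on genes of nucleotide supply and DNA replication. Later, the MuvB complex with B-MYB and FOXM1 controls the genes of mitosis, whose RNA is made mostly in G2 and M. Most cells of the adult kidney are out of the cycle, and tubule cells can enter it again after injury.

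These rules are partly written in the promoters, and the elements are shown because 1 of them, the CHR, was more frequent in late than in early genes of the set. A 300-base promoter (250 bases before the start and 50 after) was matched for 32 of the 40 genes in the RefSeq table of build GRCm38.p6. Both strands were searched for the CHR element (TTTGAA or TTTAAA), the CCAAT box (CCAAT) and 4 forms of the E2F site, which were TTCCCGC, then TTGGCGC, then TTGCCGC, then TTCGCGC. The form TTTAAA reads alike on both strands, and E2F matches can overlap each other or a CCAAT match. Of the 16 mitotic genes with a promoter, 14 held a CHR (87.5%), against 27.82% of the first promoters of 27025 genes. A CCAAT box was in 14 of those 16, against 37.92% of all genes, and in 6 of 7 promoters of licensing and fork genes (85.71%), so it was frequent in both. A CHR was in 2 of those 7 (28.57%). In the mitotic promoters both elements stood together in 13 (81.25%), against 10.91%. An E2F form was in 5 of 7 promoters of licensing and fork genes (71.43%), against 9.687% of all genes and 3 of the 16 mitotic promoters. Of the 5 G1 promoters, 1 held a CHR (Ccne1) and 1 an E2F form (Cdk2). A match is a description of letters, not a bound site. In the 5 late genes printed first the capitals mark a CHR, in Tk1 and Ccne1 likewise, and in the 4 others an E2F form, or its reverse complement where the capitals read GCGGGAA. In Top2a, TTCAAA is the CHR on the opposite strand. Each line is 30 bases, 5′ to 3′ along the gene.
Cdk1, chr10:69352910-69352939, minus strand: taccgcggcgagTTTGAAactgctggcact
Cdc20, chr4:118437344-118437373, minus strand: agacagttgggtTTTGAAggagccaatgaa
Plk1, chr7:122159394-122159423, plus strand: gcgggtttgtatTTTAAAtccccgcggcca
Ccnb1, chr13:100786511-100786540, minus strand: agcggcccggggTTTAAAcctaagcccggc
Top2a, chr11:99024195-99024224, minus strand: gctagataaaggTTCAAAtgaaactaggga
Tk1, chr11:117826125-117826154, minus strand: gttttcgctgtcTTTAAAaccaggctaaca
Ccne1, chr7:38107488-38107517, minus strand: cgcgctgggattTTTAAAtgtcccgctcga
Mcm6, chr1:128359733-128359762, minus strand: attggacgggtTTGGCGCgaagtagctcag
Mcm5, chr8:75109346-75109375, plus strand: cgccaagaactTTCGCGCcaaaacgtccag
Rrm1, chr7:102441617-102441646, plus strand: aggagaactcgTTCCCGCcaggtccgcttt
Cdk2, chr10:128705043-128705072, minus strand: gccagggaaacGCGGGAAggaggggcgggg

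**Figure D1:**
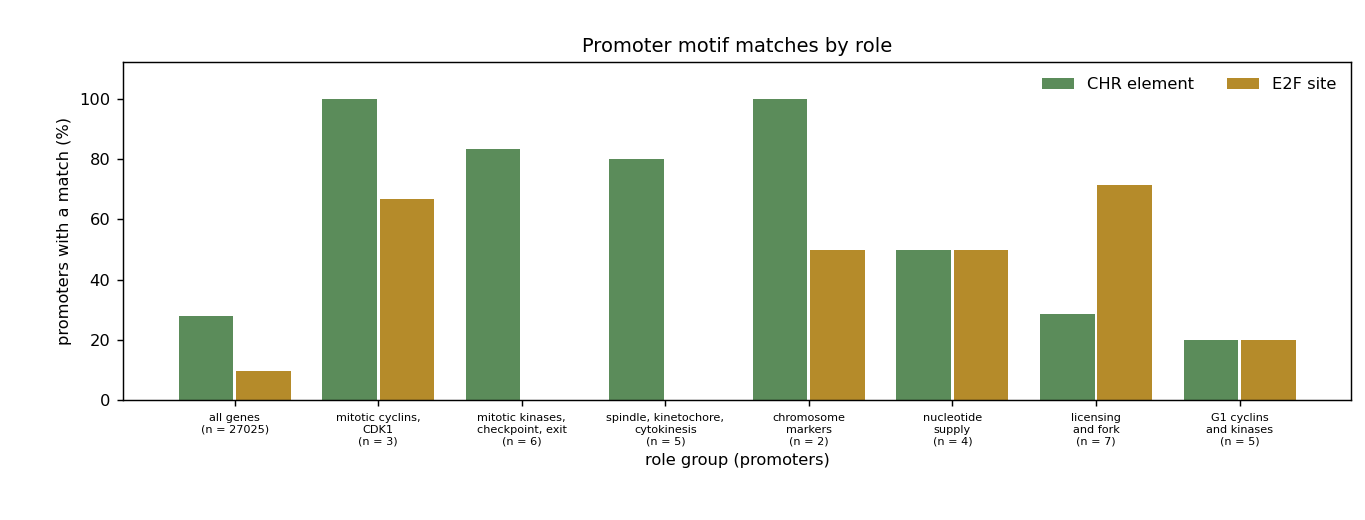
Percentage of 300-base promoters with a CHR element (green) or an E2F form (ochre), for the first promoters of all genes and for the promoters of each role group, with the number of promoters under each pair of bars. CHR matches reach 100% of the 3 promoters of mitotic cyclins and CDK1 and 20% of the 5 G1 promoters, while E2F forms reach 71.43% of the 7 licensing and fork promoters.

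Values are scaled FPKM, fragments per kilobase of gene and per megaread of depth, after division of each library by 1 scaling factor. They are per gene length, so levels of different genes are set side by side. Trends with GC content, bases shared with other genes and reads of pseudogenes, given below, were not corrected for in these levels. FPKM times length gave whole reads, which are used for the low genes, and the libraries held 15027400 to 19256378 counted reads. In whole tissue, fewer cells of a type and less RNA per cell cannot be told apart. The labels call the animals biological replicates, so the tests below measure the spread between animals. C1qtnf1 itself was listed at 2.74 to 4.75 in the WT libraries and at 0.188 to 0.575 in the KO libraries (log2 fold change of -2.32 with an SE of 0.18, adjusted p = 0.000768 by limma), as the labels say. Kidney markers were present in every library, with Umod, a product of the thick ascending limb, at 1116 to 1670.1 and Lrp2, the proximal tubule receptor megalin, at 165 to 196. The adrenal enzyme gene Cyp11a1 was at 0 to 0.0361. The 5 measured genes of adrenal and adipose tissue, Cyp11a1 among them, summed to 1.20 to 3.37, highest in WT replicate 3. WT replicate 3 stood apart in the sum of injury markers, KO replicate 4 in red cell genes and KO replicate 3 in leukocyte markers. Their values are given beside the results they touch. The 3 measured plasma cell markers summed to 11.6 to 26.8 in WT replicates 2 to 4 and KO replicate 2. Their sums were higher in WT replicate 1 and in KO replicates 1, 3 and 4, up to 58.9 in KO replicate 4.

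The cell division genes differed widely in level. Ccnd1, Cdk4, Pcna and Ccnd3, of G1 and of the replication fork, were the most abundant, and most mitotic genes were close to the limit of what these libraries could count. The median of the members' means was 4.04 for the G1 genes, 3.42 for licensing and fork, 3.26 for nucleotide supply and 0.297 for the 20 mitotic genes. The roles overlapped: Ccne2, Ccne1 and Cdc6, which act before or at the start of S phase, had means of 0.392, 0.244 and 0.101, below the mitotic genes Nusap1 (1.10), Cdc20 (0.746) and Aurka (0.659). From the highest mean to the lowest, the range ran from 56.0 for Ccnd1 to 0.0631 for Cenpf. Only the steps from Ccnd1 to Cdk4, Cdk4 to Pcna, Ccnd3 to Mcm7 and Mcm7 to Mcm2 separated neighbours in this order without overlap of their 8 values. Below Mcm2 no gene was separated from the next by its range. A mean of at least 0.5 scaled FPKM, the minimum for the main test, was reached by 22 of the 40 genes (55.0%), against 60.0% of all genes in the table. The 18 others were 15 mitotic genes, Cdc6, Ccne1 and Ccne2.

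**Figure D2:**
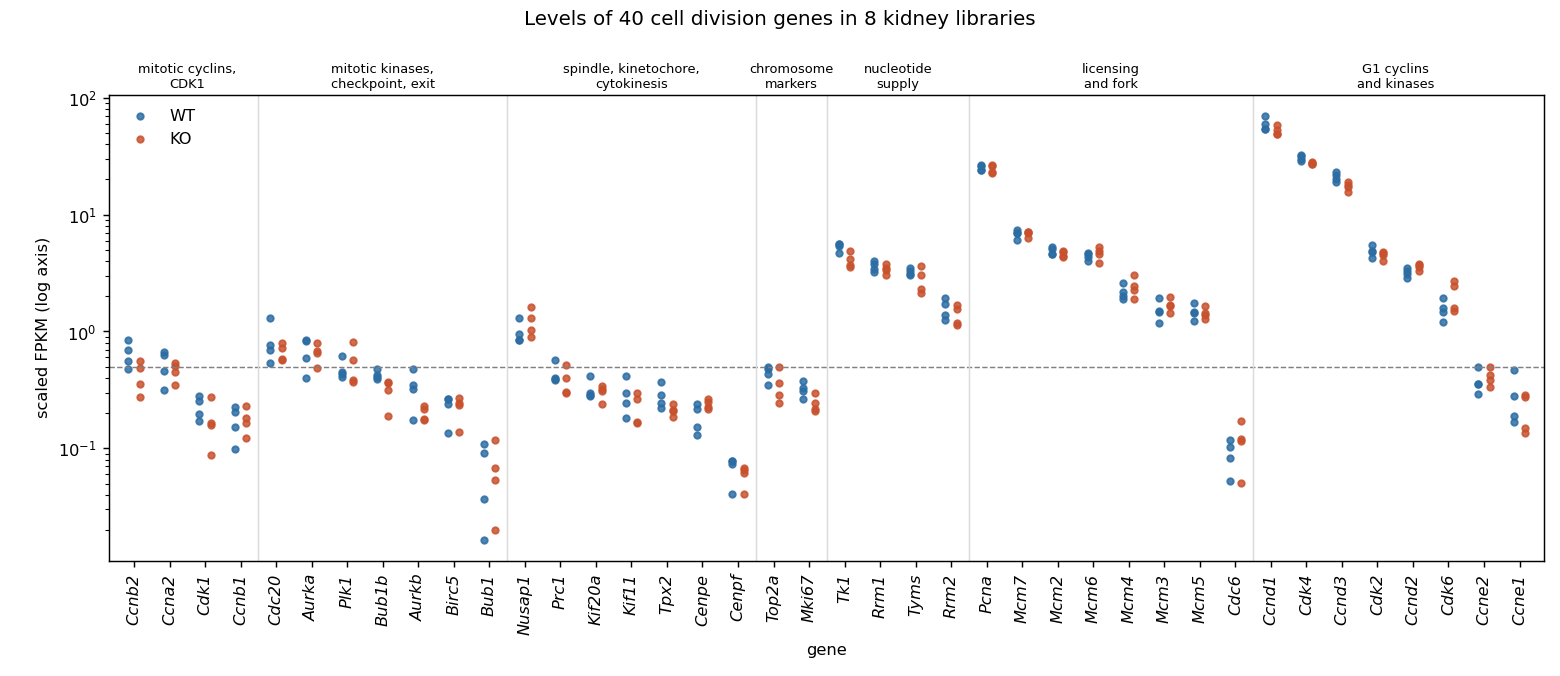
Scaled FPKM (log axis) of the 40 genes in each WT (blue) and KO (orange) library, ordered by role and by mean within a role, with 1 point per library and a dashed line at 0.5. G1 genes such as Ccnd1, at 48.9 to 70.1, stand far above the mitotic genes, most of which lie under the line.

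No gene of the set passed the test for a difference between the genotypes. Limma with Benjamini-Hochberg adjustment called 0 of the 22 tested members, with 7 of 14022 genes called in all (0.0499%). At an unadjusted p under 0.05, 3 members were lower in KO (Tk1, Ccnd3, Cdk4), where 8.26% of all tested genes were, and 0 were higher, where 7.18% were. The voom fit of limma, run on recovered reads and taking in all 40 members, called 0, against 24 of 18757 genes (0.128%). By voom, 3 of 40 members had an unadjusted p under 0.05, against 14.1% of all genes. The WT and KO values did not overlap for 1 of the 22 members, Cdk4 (background 8.62%), and by voom for 2 of 40, Cdk4 and Bub1b (background 7.58%). The members' shares were near or below these backgrounds, apart from the 3 of 22 with a low unadjusted p in the lower direction. Of the 22 members, 14 had a lower and 8 a higher mean log2 value in KO, with a median log2 fold change of -0.05 against -0.0012 over all tested genes. By voom the median over 40 members was -0.10, with 26 lower and 14 higher, against 0.0082 over all genes.

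**Figure D3:**
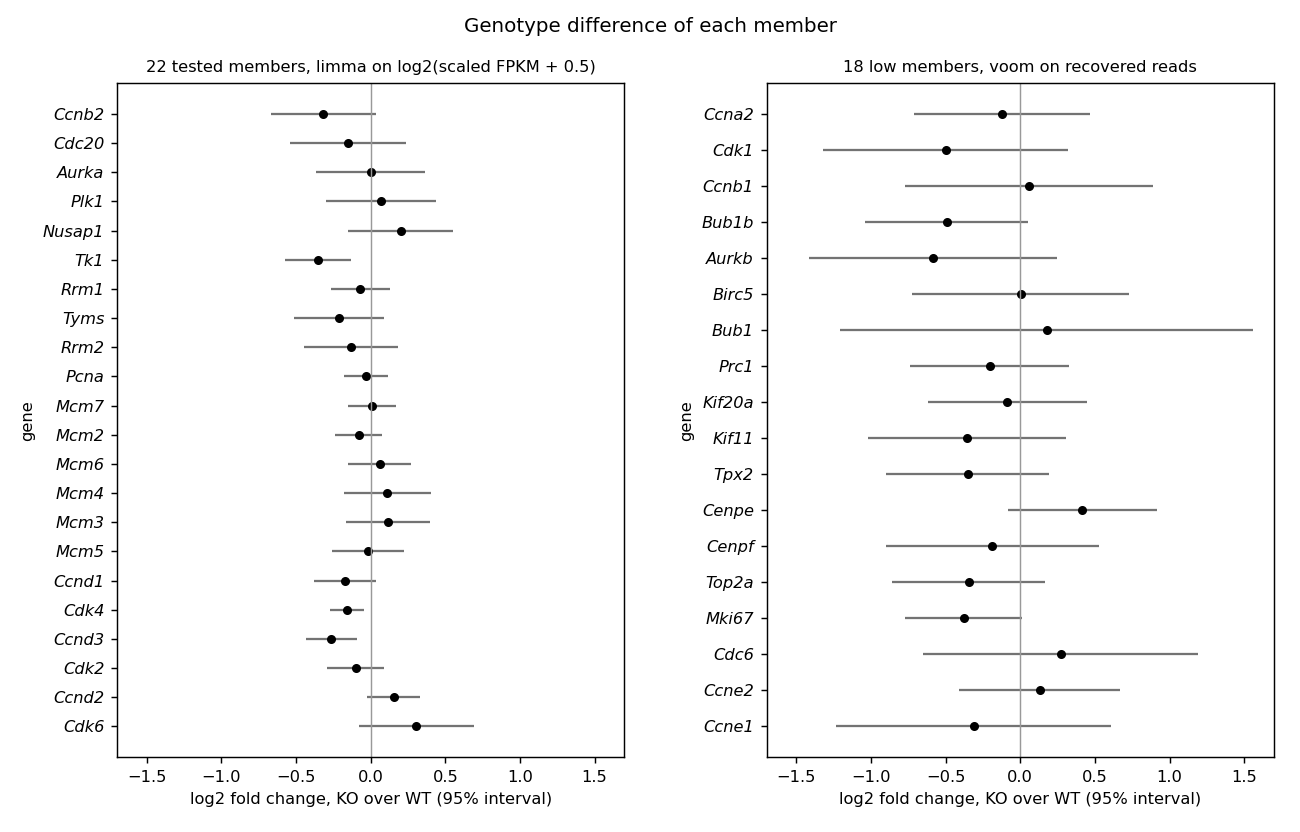
Log2 fold change of KO over WT with its 95% interval, for the 22 tested members by limma (left) and the 18 members of low level by voom on recovered reads (right), in the order of their roles. Every interval on the right includes 0, as do those on the left apart from Tk1, Ccnd3 and Cdk4, and most intervals on the right are wider.

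Among the G1 cyclins and their kinases, Ccnd1 was the most abundant gene of the set. Cyclin D1, its product, is the partner of CDK4 and CDK6 in G1. Ccnd1 was at 59.5, 53.9, 54.2 and 70.1 scaled FPKM in WT replicates 1 to 4 and at 48.9, 49.3, 52.9 and 59.1 in KO replicates 1 to 4. WT replicate 4 was the highest, and the groups overlapped through KO replicate 4. The log2 fold change was -0.17 (95% interval -0.38 to 0.04, limma adjusted p = 0.395).

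Ccnd3, for cyclin D3, was the second of the D cyclins in level. It was at 23.1, 22.0, 18.9 and 20.3 in WT and at 15.8, 17.9, 17.3 and 18.9 in KO. The lowest WT and the highest KO library were nearly equal and the groups otherwise stood apart. The log2 fold change was -0.26 (SE 0.08, 95% interval -0.43 to -0.09), the unadjusted p was 0.00642 and the limma adjusted p was 0.190. After removal of each library's trends with GC content and length, the log2 fold change was -0.19 (limma adjusted p = 0.341). Ccnd3 shares 361 bases with Bysl on the other strand, itself at a mean of 4.69 with a log2 fold change of -0.05. Shared bases, here and below, are those of the whole gene spans, introns included, so not all of them are counted. Reads from counted bases in such an overlap cannot be assigned, since no source used here says whether the libraries kept strand.

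Ccnd2, the third D cyclin, leaned the other way. It was at 3.08, 2.86, 3.29 and 3.51 in WT and at 3.58, 3.80, 3.29 and 3.72 in KO. KO replicate 3 lay among the WT values and the 3 other KO libraries above them. The log2 fold change of 0.15 (95% interval -0.02 to 0.33) had a limma adjusted p of 0.372. Without the GC and length trends it was 0.11 (limma adjusted p = 0.588). In each library Ccnd1 was above Ccnd3 (2.45 to 3.45 times) and Ccnd3 above Ccnd2. The ratio of Ccnd3 to Ccnd2 was 6.68 ± 1.07 in WT and 4.86 ± 0.376 in KO (SD, n = 4 each), a description of genes picked for their opposite leanings. It was not corrected for the trends with GC content, which is 56.7% for Ccnd3 and 47.1% for Ccnd2.

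CDK4 and CDK6 are the alternative kinases of the D cyclins, and Cdk4 was the dominant one by 10.2 to 24.2 times. Cdk4 was at 32.3, 31.6, 29.0 and 29.7 in WT and at 27.4, 27.1, 26.9 and 28.2 in KO. All 4 KO libraries were below all 4 WT libraries. The difference was small, a log2 fold change of -0.16 (SE 0.05, 95% interval -0.27 to -0.05), with an unadjusted p of 0.0103 and a limma adjusted p of 0.217. After removal of each library's trends with GC content and length it was -0.10 (adjusted p = 0.396). The libraries differed in these trends along the genotypes: the rank correlation of log2 deviation with GC content over 13947 genes was 0.286 to 0.462 in WT replicates 1, 2 and 4, -0.24 in WT replicate 3 and -0.39 to -0.07 in KO. Cdk4 also shares 604 bases with Tspan31 on the other strand, which was at a mean of 43.0 with a log2 fold change of -0.13 (limma adjusted p = 0.406).

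Cdk6 was at 1.94, 1.58, 1.20 and 1.46 in WT and at 2.68, 2.45, 1.60 and 1.51 in KO. KO replicates 1 and 2 were above every WT library, and the other KO libraries lay among them. The log2 fold change was 0.31 (95% interval -0.08 to 0.69, limma adjusted p = 0.415).

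The kinase CDK2 works with cyclins E and A at the start of S phase. Cdk2 was at 4.26 to 5.54 in WT and 4.03 to 4.75 in KO (log2 fold change -0.10, limma adjusted p = 0.599). Its E cyclins were far lower. Ccne1 was at 0.189, 0.169, 0.468 and 0.279 in WT and at 0.136, 0.151, 0.288 and 0.272 in KO, on 4 to 15 reads per library. The groups overlapped, and the voom 95% interval of the log2 fold change ran from -1.23 to 0.61. Ccne2 was at 0.293 to 0.495 in WT and 0.334 to 0.498 in KO. Its span shares 5622 bases with the more abundant Ints8 (mean 6.91) on the other strand. That is more than the 3006 bases of its counted length, so part of the overlap is not counted. In all, the spans of 12 of the 40 members overlap a gene on the other strand. How many counted bases lie in these overlaps was not tested, so how uncertain the members' levels are is not known. Summed over the 8 G1 genes, the level was 121 ± 8.11 in WT and 108 ± 5.93 in KO (SD, n = 4 each), with overlap of the groups, and Ccnd1 and Cdk4 made up most of it.

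All 4 genes of nucleotide supply had a lower mean in KO, and 0 of them passed the test. Thymidine kinase, from Tk1, salvages thymidine in dividing cells. Tk1 was at 5.61, 4.71, 5.64 and 5.35 in WT and at 3.58, 4.15, 3.68 and 4.91 in KO. KO replicate 4 was above WT replicate 2, and the 3 other KO libraries were below all of WT. The log2 fold change of -0.35 (SE 0.10, 95% interval -0.58 to -0.13) had the smallest unadjusted p of the members, 0.00567, and a limma adjusted p of 0.188. Without the GC and length trends it was -0.31 (limma adjusted p = 0.343). Tk1 lies on chromosome 11, 0.602 Mb from C1qtnf1, where sequence of the 129S5/Sv strain linked to the allele and the loss of the gene cannot be told apart. It also shares 169 bases with Afmid on the other strand, at a mean of 9.78 with a log2 fold change of -0.12.

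Rrm1 and Rrm2 encode the subunits of ribonucleotide reductase, which makes deoxynucleotides. Rrm1 was at 3.21, 3.76, 3.99 and 3.44 in WT and at 3.03, 3.34, 3.81 and 3.47 in KO. Rrm2, the subunit limited to S phase, was at 1.38, 1.26, 1.73 and 1.92 in WT and at 1.55, 1.14, 1.18 and 1.68 in KO. Both overlapped between the groups, with log2 fold changes of -0.07 (95% interval -0.27 to 0.13) and -0.13 (95% interval -0.45 to 0.18). Rrm1 exceeded Rrm2 in every library, by 1.79 to 3.22 times. Tyms, for thymidylate synthase, was at 3.06 to 3.52 in WT and spread more widely in KO, at 2.14 to 3.62 (log2 fold change -0.21, limma adjusted p = 0.466). The 4 genes summed to 13.3, 12.8, 14.9 and 14.0 in WT and to 10.3, 11.7, 11.0 and 13.7 in KO. KO replicate 4, the library with the most red cell RNA, overlapped WT, and the 3 other KO libraries were below it.

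Replication genes had the closest summed means of the 7 roles. Pcna encodes the sliding clamp of the fork, which also serves DNA repair. It was at 23.9, 26.1, 26.7 and 24.1 in WT and at 22.9, 23.1, 26.4 and 26.2 in KO. These ranges overlapped almost entirely, and the log2 fold change of -0.03 had a 95% interval of -0.18 to 0.12 (limma adjusted p = 0.841).

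The MCM2 to MCM7 proteins form 1 ring, the replicative helicase, loaded on DNA in G1. Its genes were nevertheless not at 1 level. Mcm7 was at 7.40, 7.0, 6.91 and 6.07 in WT and at 7.08, 7.15, 6.36 and 6.91 in KO, with overlap and a log2 fold change of 0.01 (95% interval -0.15 to 0.17). Mcm7 exceeded Mcm5, the lowest of the 6, by 3.49 to 6.00 times in the 8 libraries. It shares 421 bases with Ap4m1 (mean 4.97) and 64 with Cops6 (mean 59.3) on the other strand. Mcm2 and Mcm6 had means of 4.76 and 4.55 and changed places from library to library. Mcm4 was at a mean of 2.29.

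Mcm3 was at 1.19, 1.51, 1.93 and 1.48 in WT and at 1.69, 1.67, 1.96 and 1.43 in KO. The groups overlapped, with the lowest value in WT replicate 1 and the highest in KO replicate 3. Its log2 fold change of 0.12 (95% interval -0.17 to 0.40, limma adjusted p = 0.684) was the largest of the ring, and Mcm2's of -0.08 the lowest.

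CDC6 loads the ring on DNA, and its gene was among the lowest of the set. Cdc6 was at 0.0524, 0.0821, 0.117 and 0.103 in WT and at 0.170, 0.115, 0.120 and 0.0504 in KO, on 4 to 12 reads per library. With so few reads the groups overlapped widely, and the voom interval ran from -0.65 to 1.19. The 8 licensing and fork genes summed to 46.7 ± 2.03 in WT and 46.5 ± 2.67 in KO (SD, n = 4 each). Pcna, at a mean of 24.9, was the largest part of this sum.

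Mitotic genes were present but scarce, and their small numbers of reads set what could be seen. The 20 genes together held 354 to 504 reads per library, and a single gene 1 to 94. Their variation within a genotype was nearer to that of counting alone than was that of the 20 other members. The median over the 20 mitotic genes of chi-square per degree of freedom was 1.10 in WT and 0.959 in KO. For the 20 other members the median was 2.18 and 1.79. Counting alone gives a mean of 1 and a median below 1. Of the mitotic genes, 13 were at or under 2 in both genotypes, while Cdc20 reached 3.96 in WT and Nusap1 5.27 in KO.

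Among the mitotic cyclins, which activate CDK1, Ccnb2 had the highest mean over the 8 libraries, although in KO the mean of Ccna2 (0.460) was above that of Ccnb2 (0.419). It was at 0.694, 0.475, 0.850 and 0.563 in WT and at 0.353, 0.488, 0.561 and 0.275 in KO, on 7 to 21 reads. WT replicate 3 was the highest and KO replicate 4 the lowest, and 2 KO libraries lay above WT replicate 2. The log2 fold change was -0.32 (95% interval -0.67 to 0.04, limma adjusted p = 0.363), and -0.59 by voom (adjusted p = 0.422). A pseudogene listed as Ccnb2-ps had a mean of 0.901, above Ccnb2 itself, so the split of reads between the pair is uncertain.

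Ccna2, for the cyclin of S phase and G2, was at 0.319, 0.456, 0.673 and 0.628 in WT and at 0.505, 0.542, 0.447 and 0.347 in KO. Ccna2 shares 864 bases with Exosc9 (mean 4.07) on the other strand. Ccnb1, for the main mitotic cyclin, was at 0.152, 0.204, 0.226 and 0.0996 in WT and at 0.164, 0.181, 0.231 and 0.122 in KO, on 4 to 10 reads. Ccna2 and Ccnb1 each overlapped between the groups. Ccnd1, the highest gene of the set, exceeded Ccnb1, the lowest of the mitotic cyclins, by 229 to 703 times over the 8 libraries. Cdk1 had a mean of 0.226 in WT and 0.171 in KO.

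Of the kinases and checkpoint genes, Cdc20, the activator of the anaphase-promoting complex, had the highest mean. Cdc20 was at 1.30, 0.534, 0.696 and 0.761 in WT and at 0.797, 0.728, 0.578 and 0.574 in KO. WT replicate 1 held the highest and WT replicate 2 the lowest value, so the KO range lay inside that of WT. Its limma log2 fold change was -0.15 (95% interval -0.54 to 0.24). Cdc20 shares 53 bases with the far more abundant Elovl1 (mean 47.2) on the other strand.

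Aurka, for the Aurora kinase of the spindle poles, was at 0.397, 0.828, 0.589 and 0.846 in WT and at 0.679, 0.659, 0.484 and 0.794 in KO. The means were 0.665 and 0.654, and the 95% interval of the log2 fold change was -0.37 to 0.36. Bub1, a checkpoint kinase, was the lowest of the group. It was at 0.0368, 0.0165, 0.0912 and 0.109 in WT and at 0.0199, 0.117, 0.0674 and 0.0531 in KO, which is 1 to 8 reads per library, too few to compare. Its relative Bub1b, of the same checkpoint, was at 0.395 to 0.476 in WT and 0.188 to 0.369 in KO, on 12 to 31 reads. These ranges did not overlap (voom log2 fold change -0.49, 95% interval -1.04 to 0.05, adjusted p = 0.394).

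Plk1 had a mean of 0.477 in WT and 0.534 in KO, and Aurkb, for the kinase of the chromosomal passenger complex, 0.331 and 0.200. Birc5, for survivin of the same complex, had means of 0.226 and 0.223. It lies 0.572 Mb from C1qtnf1, near Tk1, and its voom log2 fold change was 0.0027 (95% interval -0.72 to 0.73).

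Among spindle and cytokinesis genes, Nusap1 was the highest mitotic gene of all. It encodes a microtubule-binding protein of the spindle. Nusap1 was at 0.839, 0.943, 1.31 and 0.844 in WT and at 1.31, 0.897, 1.03 and 1.61 in KO, on 47 to 94 reads. The highest value was that of KO replicate 4, and the log2 fold change was 0.20 (95% interval -0.15 to 0.55, limma adjusted p = 0.562).

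KO replicate 4 was also the library with the most red cell RNA: its erythroid markers summed to 3064, against 525 to 1153 in the other 7 libraries. Of the erythroid markers, Alas2, the heme synthesis enzyme of red cell precursors, was at 23.2 there and 4.21 to 7.85 elsewhere, while Gata1 was at 0 to 0.0528 over all libraries. The part of these cells in the Nusap1 value was not tested.

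Prc1, for a protein that bundles the midzone microtubules, was at 0.397, 0.386, 0.565 and 0.391 in WT and at 0.299, 0.303, 0.522 and 0.399 in KO. WT replicate 3 and KO replicate 3 were high and the groups overlapped. Cenpf, a large kinetochore gene, shared the lowest level of the set with Bub1 (means of 0.0631 and 0.0639, Bub1 the lower in WT), at 0.0735, 0.0405, 0.0784 and 0.0779 in WT and 0.0611, 0.0406, 0.0673 and 0.0652 in KO. Both groups held 1 low library of 0.04, and the others lay between 0.0611 and 0.0784. The kinetochore motor gene Cenpe leaned higher in KO, at 0.184 ± 0.0510 in WT and 0.240 ± 0.0209 in KO (SD, n = 4 each; voom adjusted p = 0.432). Tpx2, Kif11 and Kif20a, which build and drive the spindle, had means of 0.280, 0.285 and 0.320 in WT and 0.212, 0.222 and 0.303 in KO. Kif20a shares 2315 bases with Cdc23 (mean 6.07) on the other strand.

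Mki67 and Top2a are the usual markers of proliferating cells. Mki67, for the surface protein of mitotic chromosomes, was at 0.331, 0.308, 0.378 and 0.265 in WT and at 0.209, 0.299, 0.246 and 0.216 in KO, on 31 to 61 reads. Its groups overlapped through WT replicate 4 and KO replicate 2, and voom gave a log2 fold change of -0.38 (95% interval -0.77 to 0.01, unadjusted p = 0.0566, adjusted p = 0.366). Top2a, for the topoisomerase that untangles chromosomes, was at 0.494, 0.345, 0.430 and 0.475 in WT and at 0.287, 0.365, 0.243 and 0.499 in KO. The highest Top2a value was in KO replicate 4 (voom log2 fold change -0.35, 95% interval -0.86 to 0.17). The 2 genes summed to 0.756 ± 0.0784 in WT and 0.591 ± 0.116 in KO (SD, n = 4 each), with overlap.

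The sum of the 20 mitotic genes was 7.50, 6.86, 8.96 and 8.21 in WT and 7.01, 7.01, 6.98 and 7.39 in KO. The KO libraries lay close together and the WT libraries spread around them, from below the lowest KO to above the highest. By voom, 14 of the 20 genes were lower in KO and 6 higher, with a median log2 fold change of -0.20. The KO sum was 0.901 of the WT sum. With 1 library left out, this ratio ran from 0.863 without WT replicate 2 to 0.943 without WT replicate 3. WT replicate 3 was the highest of the 8 libraries for 8 of the 20 mitotic genes and the lowest for 0. KO replicate 1 was the highest for 0, and WT replicate 2 the lowest for 6.

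WT replicate 3 was also the library with the most injury marker RNA. Havcr1, for the tubule injury protein KIM-1, was at 4.73 there, at 1.89 in WT replicate 2, while the 6 other libraries lay between 0.482 and 0.656. Vcam1 and Krt20 were highest in the same library, at 12.5 and 1.62. The 11 injury markers summed to 810 in it and to 417 to 566 in the others. Lcn2, another injury gene, was at 3.40 in WT replicate 3 and 4.07 in KO replicate 3. There the mitotic sum was 6.98, nearly equal to the 7.01 of KO replicates 1 and 2. WT replicate 2, second in Havcr1 and with an injury sum of 561, had the lowest mitotic sum of the libraries, 6.86. Leukocyte markers summed to 105 to 130 in all libraries but KO replicate 3, at 160. The part of injured tubules, of leukocytes and of plasma cells in the mitotic sums was not tested.

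**Figure D4:**
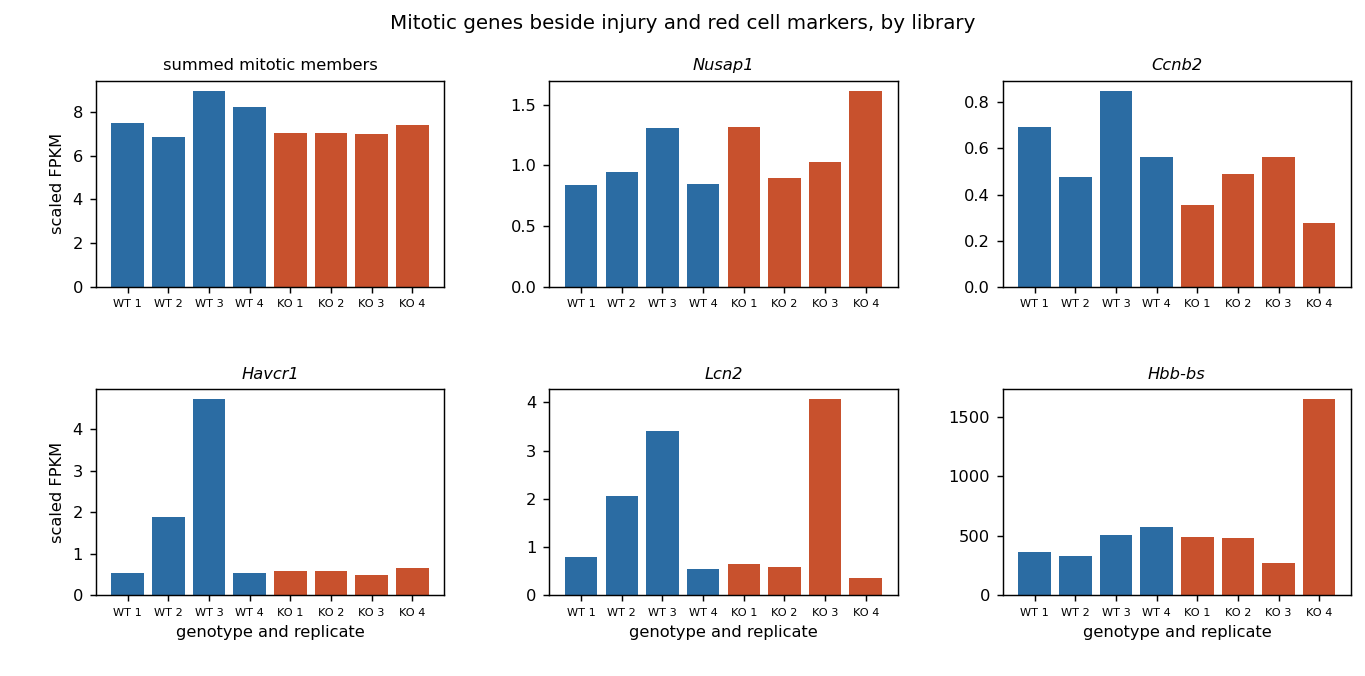
Bars give scaled FPKM in each of the 8 libraries (WT blue, KO orange) for the summed mitotic genes, Nusap1 and Ccnb2 above, and for the injury genes Havcr1 and Lcn2 and the red cell gene Hbb-bs below, all axes starting at 0. WT replicate 3 has the highest mitotic sum (8.96) and Havcr1 (4.73), KO replicate 3 the highest Lcn2 (4.07), and KO replicate 4 the highest Nusap1 (1.61) and Hbb-bs.

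**Figure D5:**
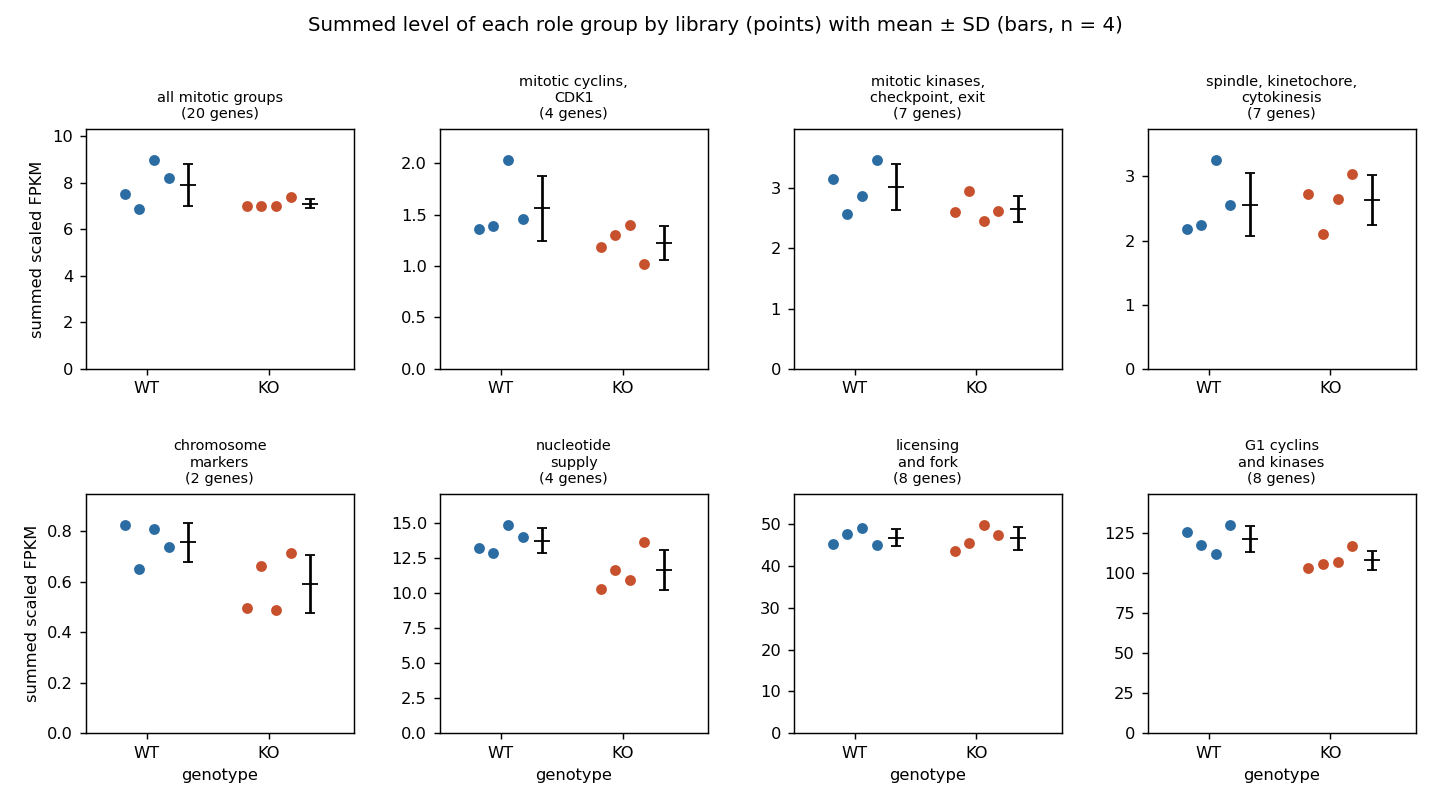
Summed scaled FPKM of all 20 mitotic genes and of each of the 7 role groups by library (points, WT blue and KO orange), with the mean ± SD of 4 libraries beside them (black), on axes that start at 0. The licensing and fork sums of WT (46.7) and KO (46.5) coincide, and the groups overlap in all 8 panels.

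The wider machinery of the cycle was counted from 5 further lists. Limma called 0 genes of each list, and so did voom. The genes named below are the 2 of smallest p in each list, a choice that favours groups without overlap. Over all tested genes, 8.62% had groups without overlap. Among 62 other mitosis genes, 23 were tested, with 1 lower and 1 higher at an unadjusted p under 0.05, shares below those of all tested genes (8.26% lower, 7.18% higher). Spag5, for the spindle protein astrin, was at 0.599, 0.928, 0.385 and 0.941 in WT and at 1.28, 1.68, 2.02 and 1.06 in KO. All KO values were above all WT values (log2 fold change 0.73, SE 0.20, limma adjusted p = 0.178). Spc24, of the NDC80 kinetochore complex, was at 1.91 to 2.13 in WT and 1.37 to 1.75 in KO (log2 fold change -0.26, limma adjusted p = 0.251). This pair leaned in opposite directions, and over the list 13 genes were lower and 10 higher.

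Among the 43 tested of 59 other replication genes, 0 were lower and 1 was higher at an unadjusted p under 0.05, again below the 8.26% and 7.18% of all tested genes. Tipin, of the fork protection complex, was at 4.53 to 5.17 in WT and 5.68 to 6.75 in KO, without overlap (log2 fold change 0.30, SE 0.07, limma adjusted p = 0.155). Orc4, of the origin recognition complex, was at 4.10 to 4.85 and 4.46 to 5.66 (limma adjusted p = 0.339).

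Among the transcription factors of the cycle, 18 of 22 were tested, with 2 lower and 5 higher at an unadjusted p under 0.05. Of all tested genes, 8.26% were lower and 7.18% higher, so the 5 higher were a larger share than that background. These counts were made without removal of each library's trends with GC content and length. Myc, a driver of cell growth, was at 3.48, 3.82, 4.23 and 2.83 in WT and at 1.99, 2.60, 2.39 and 2.38 in KO. Every KO library was below every WT library (log2 fold change -0.52, SE 0.12, limma adjusted p = 0.151). Rb1, the brake on E2F that cyclin D kinases release, was at 5.23 to 6.08 in WT and 6.42 to 6.65 in KO, also without overlap (limma log2 fold change 0.17 ± 0.06 SE, adjusted p = 0.260).

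The CDK inhibitors, which hold cells out of the cycle, were far more abundant than the mitotic genes and overlapped between the genotypes as a sum. Their 8 genes summed to 43.8 to 53.2 in WT and 45.2 to 54.1 in KO, with 6 tested and 0 under an unadjusted p of 0.05. Cdkn2b, for p15, was at 0.813, 1.46, 1.16 and 0.668 in WT and at 1.42, 2.45, 4.63 and 0.565 in KO. The KO libraries held both its lowest and its highest value, the latter in KO replicate 3, where Lcn2 was also highest (log2 fold change 0.66, 95% interval -0.25 to 1.57, limma adjusted p = 0.458). Cdkn2d, for p19, was at 3.68 to 6.12 in WT and 5.09 to 6.57 in KO (limma adjusted p = 0.569).

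Of the phosphatases, inhibitory kinases and ubiquitin ligases, 19 of 23 were tested, with 3 lower and 0 higher at an unadjusted p under 0.05, where 8.26% and 7.18% of all tested genes were. Anapc11, the RING subunit of the anaphase-promoting complex, was at 10.4, 11.3, 10.8 and 10.3 in WT and at 8.66, 8.87, 9.24 and 9.37 in KO. These did not overlap (log2 fold change -0.23, SE 0.05, limma adjusted p = 0.159). Anapc5, of the same complex, was at 65.6 to 67.3 in WT and 61.1 to 63.7 in KO, a small difference without overlap (log2 fold change -0.10, limma adjusted p = 0.289).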

How the data were processed

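Messenger RNA of 8 left kidneys, 4 per genotype, was selected with poly-T beads, per the labels' protocols. The authors deposited FPKM for 23386 genes on build mm10. The submitters' processing notes name STAR 2.5, HTSeq 0.6.1, CASAVA and DESeq2, with no roles. Annotation release and strand: not given in the sources used here. Multiplying the deposited FPKM by gene length gave whole reads in each library for 100% of values within a tolerance of 0.01.

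FPKM was divided by a median-ratio factor per library (0.978 to 1.03). Genes with a mean of at least 0.5, 14022 in all, were fitted as log2(scaled FPKM + 0.5) with limma 3.58.1 in R 4.3.3 (eBayes with trend, genotype as the only term, two-sided). Calls were made at an adjusted p (Benjamini-Hochberg, over all tested genes) under 0.05. Fold changes are on the log2(value + 0.5) scale, which understates changes of low genes. Limma's voom was run on recovered reads for the 18757 genes with at least 10 reads, and its values are those given for members below the minimum. GC content came from GENCODE vM21 transcripts for 99.5% of tested genes, and its trend was removed with splines of 4 degrees of freedom. Intervals cover 95%. The script was tested on simulated data.

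Named members were the 2 highest and the lowest of each of 7 roles and the 4 of smallest p in each direction, and of each further list the 2 of smallest p. Bub1b and other members given by range, the overlapping genes, and Gata1 and Cyp11a1 among the markers were picked after their values were seen. Members and lists were chosen with earlier results of these data known. No label pairs WT with KO animals, and the fit has no block. Alternatives were other pseudocounts, minima, scalings, limma settings and thresholds, and leaving out each library.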

Additional observations from a re-analysis of the deposited data

Results flagged for a closer look

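In 98 groups of 4 libraries (each gene and each role sum in each genotype), a value was marked when its gap to the nearest other was, as a share of the group's range, above Dixon's 95% critical value for 4 values, which chance does in about 1 of 20 groups, and 5 values were marked. Prc1 was at 0.565 in WT replicate 3, with the 3 other WT libraries at 0.386 to 0.397. The mitotic cyclins and Cdk1 summed to 2.03 in the same library and to 1.36 to 1.46 in the other WT libraries. Kif20a was at 0.417 in WT replicate 4, against 0.282 to 0.297 in the others. Cenpf was at 0.0405 in WT replicate 2, below 0.0735 to 0.0784. The summed mitotic genes of KO replicate 4 were at 7.39, above the 6.98 to 7.01 of the 3 other KO libraries, which lay close together. Read numbers behind the single genes were 8 to 33 per library in WT.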

How the results depend on the processing

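Across 21 alternatives, 458 log2 fold changes of the 22 tested members were recomputed: 0 were called, 0 of those over 1 SE from 0 changed sign (16 within 1 SE of 0 did), and 455 moved by less than 1 SE. The 3 that moved further were Ccnb2 at a pseudocount of 0.1 (-0.53) and by voom (-0.59) and Cdk4 without GC and length trends (-0.10). Their median, -0.05, ranged from -0.08 at a minimum of 0.1 to -0.02 without KO replicate 1, and was -0.03 without WT replicate 2, without WT replicate 3 and without Tk1. The number of members whose groups do not overlap was 1 of 22 in the main analysis. It was 2 of 38 at a minimum of 0.1 and 2 of 40 with no filter (Cdk4 and Bub1b). With no scaling, upper-quartile scaling and quantile normalization it was 2 of 22 (Cdk4 and Ccnd3). The share over all genes in these changed settings is not given, so the numbers cannot be set against a background. Leaving out single libraries gave 1 to 5, where all genes gave 10.8% to 21.1%. It was 5 of the 22 without KO replicate 4 (Ccnd1, Ccnd3, Cdk4, Tk1, Tyms), where all genes gave 13.7%. It was 3 without WT replicate 2 or WT replicate 4 (all genes 10.8% and 12.6%). It was 2 without WT replicate 3 or KO replicate 3 (all genes 21.1% and 13.1%). Members with an unadjusted p under 0.05 then numbered 3 to 6, 6 of them without KO replicate 4, with a lowest adjusted p of 0.0777 without WT replicate 3. No share over all genes is given for these counts, so whether any of them exceeds that share is not known. Taking the mean of log2 values in place of sums gave KO over WT ratios of 0.904 for Mki67 and Top2a (0.781 as a sum) and 0.975 for the G1 genes (0.891). The other 86 of 88 role sums moved by less than the spread between animals. Depth limits the low members unequally: the voom 95% interval of the KO over WT fold was 0.586 to 1.01 for Mki67 and 0.537 to 1.14 for Tpx2, but 0.374 to 1.19 for Aurkb and 0.434 to 2.95 for Bub1.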
